A study of Mus musculus with 24 samples.

Results

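The effect of progranulin loss on sorted microglia was measured over whole animals, with the lipofuscin-low and lipofuscin-high cells of each animal given the same weight. The 24 libraries of the series came from 12 mice, and the estimated counts of each animal's low and high library were scaled to equal depth and summed, which gave 12 animal profiles. Of these, 6 were GrnKO (Grn-/-) and 6 were WT (Grn+/+). All mice were 19 months old and on a C57Bl/6J background, and both genotypes carried the hTfR mu/hu knock-in, so that the controls are not unmodified wild-type mice. Each genotype had 3 animals labelled male and 3 labelled female. Brain tissue was broken up in the presence of actinomycin D, an inhibitor of transcription, and anisomycin, an inhibitor of translation, and CD11b+/CD45+ cells were sorted into bins of low and high autofluorescence at 488 nm excitation, 1000 cells to a library; no source used here gives the gate limits. Poly(A) RNA was amplified with a SMARTSeq v4 3' kit, tagmented and sequenced on a single lane as single-end reads of 100 bp. The question was which genotype effects are shared by the bins and are not resolved when a bin is tested alone.

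Progranulin is a secreted glycoprotein that is taken up into lysosomes and cut there into granulins, and microglia are its main source in the brain. In humans, loss of a single copy of GRN causes frontotemporal dementia, and loss of both copies causes a neuronal ceroid lipofuscinosis, a disease of lysosomal storage. Lipofuscin is the autofluorescent residue that collects in lysosomes of ageing cells, and microglia under lysosomal or lipid load are known to switch on a shared set of genes for lysosomal proteins, lipid handling and the TREM2-TYROBP receptor pathway.

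The libraries held 12.9 to 46.8 M counts and the animal profiles 25.8 to 92.7 M. Microglial markers were present in all 12 profiles: P2ry12, a purine receptor, lay between 1185 and 2755 CPM (counts scaled to TMM-adjusted library size, the unit of all levels here), and Tmem119, a microglial membrane protein, between 397 and 1418 CPM. WT animal 1 stood apart from the other profiles. Its mitochondrially encoded transcripts made up 8.81% of counts against 1.602 to 2.78% in the other 11, its astrocyte markers summed to 2500 CPM against 283 to 850 CPM, and its profile was the shallowest. Choroid plexus markers were concentrated in 4 libraries, the low libraries of WT animal 9, GrnKO animal 8 and WT animal 1 and the high library of WT animal 1, whose summed levels of 20667 to 83609 CPM compared with at most 2056 CPM in the rest. Xist, the transcript of the inactive X chromosome, was at 967 CPM or more in each animal labelled male and at 2.19 CPM or less in each one labelled female, and Y-linked Ddx3y had the opposite pattern. These transcripts went against the sex label in all 12 animals, so the labels were kept only as names of the 2 classes. The main counts below are also given without WT animal 1.

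Grn itself served as the check of genotype. Its level was 0.754, 3.16 and 19.3 CPM (lowest, median and highest) in the 6 GrnKO animals and 507, 734 and 1131 CPM in the 6 WT animals. Every GrnKO animal lay far under every WT animal, and GrnKO animal 4 was the highest of its group. On the log2(CPM + 0.5) scale the difference of the means was -7.71 (exact permutation test, 2-sided, p = 0.00216, the smallest that 6 against 6 animals allow). In edgeR's quasi-likelihood test, which was used for all genes, Grn fell by 7.25 ± 0.88 (SE) on the log2 scale, with a Benjamini-Hochberg adjusted p of 0.00342.

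Of 13683 genes tested over animals, 37 had an adjusted p under 0.05 (0.270%; edgeR quasi-likelihood test). Of these, 31 rose in GrnKO (0.227%) and 6 fell (0.0439%), and 27 of them changed at least 2-fold. The profiles of the genotypes did not overlap for any of the 37 genes, whereas 1.57% of all tested genes had genotypes that did not overlap. The median log2 fold change of all tested genes was -0.04. Without WT animal 1, 153 genes passed, 113 higher and 40 lower, and all 37 were among them. Without only its low library, the one highest in mitochondrial share, 34 genes passed, among them 26 of the 37. In a bulk profile, a change in the share of a cell type and a change in RNA per cell cannot be told apart.

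Genes of the disease-associated state of microglia gave more calls than any other list described here. The lists were chosen with earlier results of these data known, so their ranking is not independent of the data. Of 37 listed genes of this state, all tested, 11 rose (29.7%, against 0.270% of all tested genes called) and none fell. The median log2 fold change over the list was 0.73. Summed over the list, the 6 GrnKO profiles lay between 125441 and 168764 CPM and the 6 WT profiles between 67558 and 99942 CPM. Abundant genes weigh most in this sum, such as Fth1, with a GrnKO mean of 26466 CPM, and Apoe, with 23080 CPM, which was not called. Without WT animal 1 the list had 19 genes higher and 1 lower, Ccl6. The list holds Gpnmb, Fabp5, Igf1, Cst7, Cd63, Lgals3, Ctsb, Fth1, Tyrobp and Timp2, which are described below with their pathways, and Gm1673, which was named after its values were seen and had means of 166 CPM in GrnKO and 29.6 CPM in WT.

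Gpnmb, a transmembrane glycoprotein of lysosome-rich cells that is induced when lysosomes are stressed, was at 293, 356 and 483 CPM (lowest, median and highest) in GrnKO animals and at 3.08, 4.42 and 15.99 CPM in WT animals. WT animal 5 was the highest WT profile, and even it stayed far below the lowest GrnKO profile. The log2 fold change was 6.04 ± 0.35 (SE, adjusted p = 8.3e-07, edgeR quasi-likelihood test). Fabp5, which carries fatty acids in the cytosol, was at 959.7 to 1861 CPM in GrnKO animals (median 1193) and at 148 to 364 CPM in WT animals (median 245). Its log2 fold change was 2.43 ± 0.15 (edgeR adjusted p = 8.3e-07), with a gap between the genotypes larger than the range of the WT profiles. Igf1, the insulin-like growth factor that microglia secrete, was at 100.2 to 172 CPM in GrnKO (median 137) and 32.0 to 64.9 CPM in WT (median 41.5), a log2 fold change of 1.65 ± 0.14 (edgeR adjusted p = 7.33e-05). Lgals3, the galectin that marks damaged lysosomes, had a log2 fold change of 1.66 ± 0.20, from 348 ± 108 CPM in WT to 1101 ± 203 CPM in GrnKO (SD, n = 6 each; edgeR adjusted p = 0.00143).

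**Figure D1:**
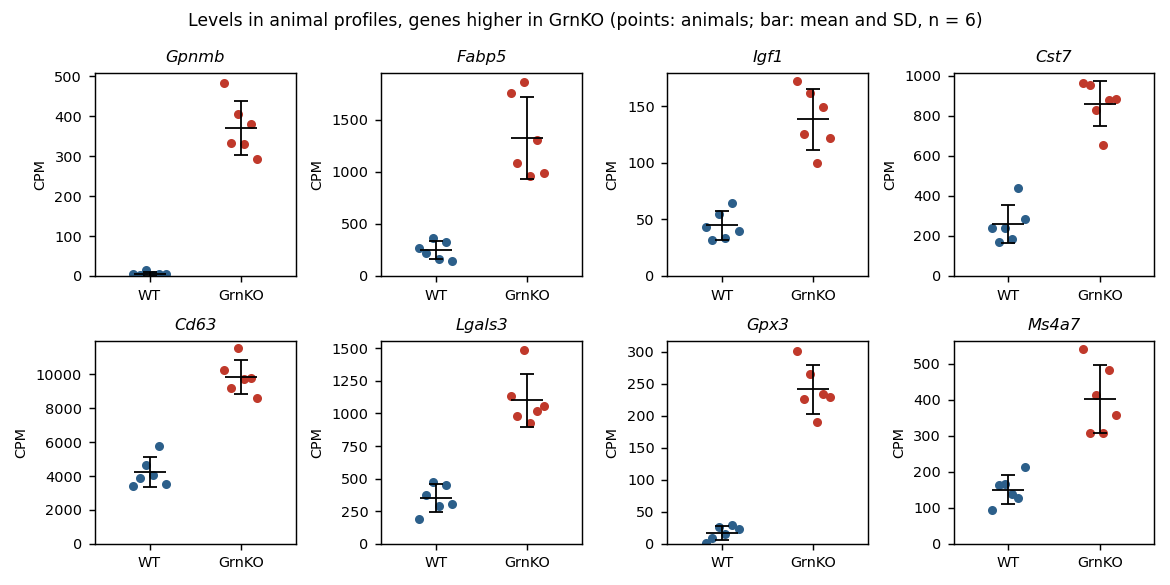
Levels of 8 genes that rose in GrnKO, in CPM per animal profile (linear axes from 0), with the mean and SD of 6 animals per genotype. In every panel the lowest GrnKO point lies above the highest WT point, and Gpnmb runs from 3.08 to 15.99 CPM in WT and from 293 to 483 CPM in GrnKO.

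The promoters of the risen genes were searched for the DNA letters bound by transcription factors of lysosomal and antioxidant genes. Promoter sequences, 250 bases before to 50 after a transcript start, came from RefSeq (build GRCm38.p6, not the build of the counts) and were found for 21 of the 31 risen genes. The E-box CACGTG, the core of the site bound by TFEB and TFE3, was found on either strand in 2 of the 21 genes (9.52%), Bnip3 and Prdx4, against 8.09% of all 27025 genes in the table. The M-box TCATGTG, a site of the related factor MITF, was found in 3 of the 21 (14.3%), Fth1, Ms4a7 and Rftn1, against 4.31% of all genes. The antioxidant response core TGACNNNGC, bound by NRF2, was found in 2 of the 21 (9.52%), Hcst and Timp2, against 14.0% of all genes. No motif's letters contain those of another, both strands were read, and a match is only a description of the letters. Gpnmb is shown because it changed most among the risen genes with 10 CPM or more, and its window holds none of the 3 motifs; Rftn1 and Fth1 are shown for the M-box, here on the reverse strand and in capitals. A gene was counted when any of its windows held the motif. For Fth1 (chr19:9982396-9982695) and for Ms4a7 the source lists another start, whose window holds no M-box. Which start these cells use was not tested.
Gpnmb, chr6:49036268-49036567, plus strand: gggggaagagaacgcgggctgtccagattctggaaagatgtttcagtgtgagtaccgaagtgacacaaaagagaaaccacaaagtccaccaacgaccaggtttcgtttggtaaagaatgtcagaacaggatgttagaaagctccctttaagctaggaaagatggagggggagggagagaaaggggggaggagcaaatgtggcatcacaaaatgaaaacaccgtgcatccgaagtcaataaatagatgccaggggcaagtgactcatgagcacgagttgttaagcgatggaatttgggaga
Rftn1, chr17:50190448-50190747, minus strand: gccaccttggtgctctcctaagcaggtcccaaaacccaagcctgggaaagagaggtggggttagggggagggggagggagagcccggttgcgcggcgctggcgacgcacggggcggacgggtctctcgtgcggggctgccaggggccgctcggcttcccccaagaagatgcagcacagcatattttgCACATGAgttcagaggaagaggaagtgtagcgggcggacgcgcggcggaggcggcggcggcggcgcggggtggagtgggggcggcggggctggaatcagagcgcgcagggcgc
Fth1, chr19:9980350-9980649, plus strand: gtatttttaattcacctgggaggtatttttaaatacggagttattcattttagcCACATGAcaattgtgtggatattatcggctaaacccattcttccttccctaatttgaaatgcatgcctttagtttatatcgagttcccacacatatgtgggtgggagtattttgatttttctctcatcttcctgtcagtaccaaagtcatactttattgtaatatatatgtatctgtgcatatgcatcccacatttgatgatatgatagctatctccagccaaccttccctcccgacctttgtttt

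Lysosomal genes moved in part. The list counts here and below stand beside a share of 0.270% called over all tested genes. Of 17 tested lysosomal cathepsins and cystatins, 2 rose and none fell (median log2 fold change 0.22). Ctsb, the cysteine protease cathepsin B, was at 10736, 12625 and 15171 CPM (lowest, median and highest) in GrnKO animals and at 2374, 5681 and 6896 CPM in WT animals. WT animal 1 was the lowest WT profile, and without it the log2 fold change was 1.09 ± 0.10 in place of 1.25 ± 0.21 (edgeR adjusted p = 3.94e-05 and 0.023). Cst7, cystatin F, which inhibits cathepsins inside lysosomes, was at 655 to 963 CPM in GrnKO animals and at 172 to 438 CPM in WT animals, a log2 fold change of 1.75 ± 0.20 (edgeR adjusted p = 8.63e-04).

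Of 35 genes for lysosomal membrane proteins and tetraspanins, 3 rose and none fell (median 0.10). They were Gpnmb, Cd63 and Gpr137b. Cd63, a tetraspanin of late endosomes and lysosomes, was at 8611 to 11563 CPM in GrnKO and at 3384 to 5788 CPM in WT, a log2 fold change of 1.23 ± 0.13 (edgeR adjusted p = 4.79e-04). Gpr137b, a lysosomal membrane protein, was at 47.1 to 104 CPM in GrnKO and 17.7 to 38.5 CPM in WT; its call was the weakest of the 37 (log2 fold change 1.22 ± 0.23, edgeR adjusted p = 0.0473). Of 20 V-ATPase genes, which encode the pump that acidifies lysosomes, 18 had a positive fold change (median 0.32), and 1, Atp6v0d2, passed. Atp6v0d2, a variant of the membrane-sector d subunit, was at 10.3, 20.9 and 32.8 CPM in GrnKO and at 0.0375, 0.944 and 2.17 CPM in WT (log2 fold change 4.45 ± 0.82, edgeR adjusted p = 0.039). In the WT animals these levels rest on 1 to 154 counts a profile.

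Among 30 genes for sphingolipid and other lysosomal lipid breakdown, 1 rose and none fell (median 0.34). It was Smpdl3a, a phosphodiesterase related to acid sphingomyelinase, at 68.3 to 122 CPM in GrnKO and 35.2 to 54.9 CPM in WT (log2 fold change 0.88 ± 0.15, edgeR adjusted p = 0.0208). Of 30 glycosidases and sulfatases none passed (median 0.32). Hpse, heparanase, had means of 40.8 and 3.64 CPM with genotypes that did not overlap (edgeR adjusted p = 0.0613), and Gla, alpha-galactosidase A, had means of 37.5 and 13.6 CPM (adjusted p = 0.0818). Without WT animal 1, more lysosomal genes passed, all upward: 6 cathepsins and cystatins, 5 membrane proteins, 5 V-ATPase genes, 4 lipid-breakdown genes and 3 glycosidases and sulfatases. When profiles were scaled by library size only, the median of all tested genes was -0.17, and the list medians stood at -0.03 for membrane proteins and between 0.10 and 0.21 for the other 4 lysosomal lists.

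**Figure D2:**
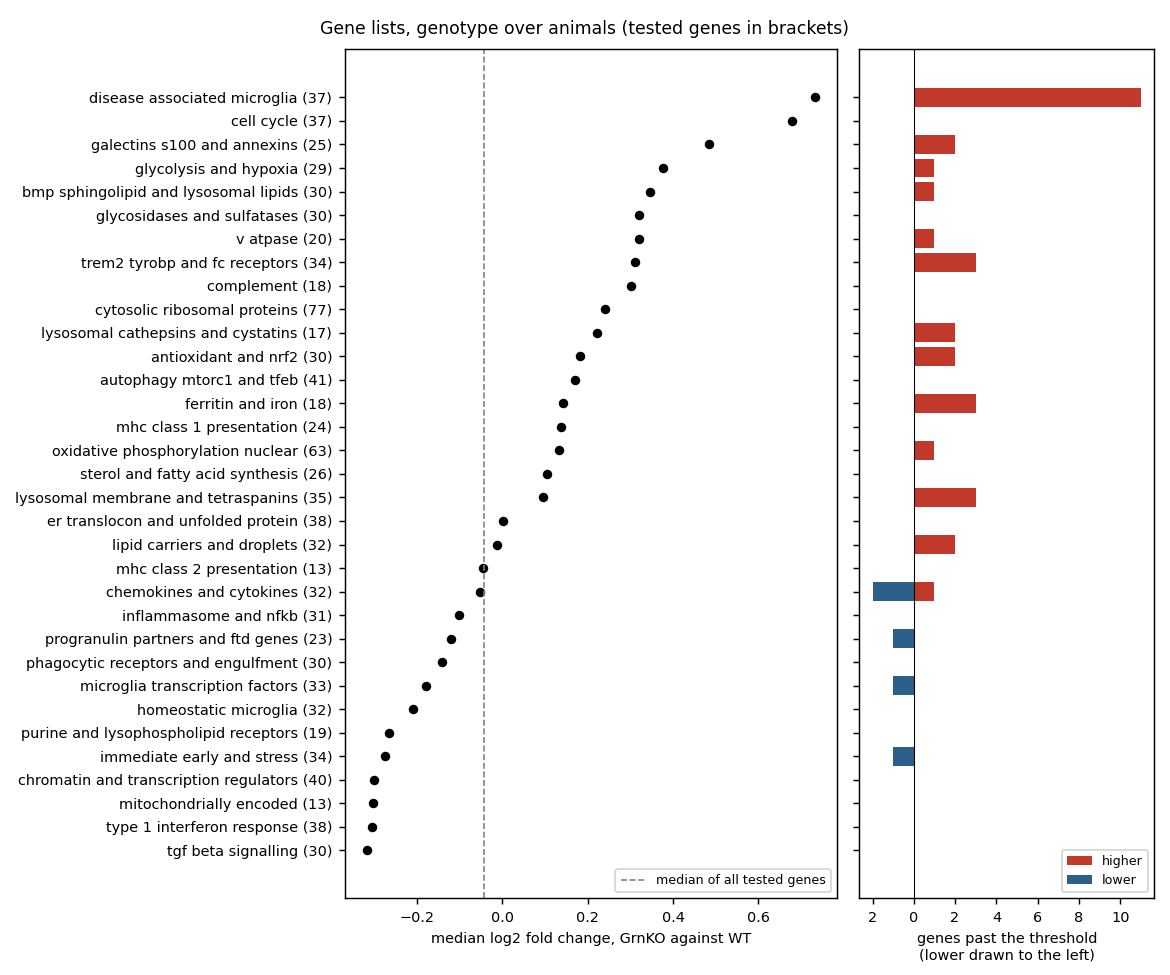
Left, median log2 fold change (GrnKO against WT, over animals) of the tested members of each pathway list (marker lists of other cell types are not drawn), with the median of all tested genes as a dashed line; right, members past the adjusted p threshold, higher to the right and lower to the left. Among the pathway lists drawn here, the disease-associated list has the highest median, 0.73, and the most calls, 11.

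Iron storage and antioxidant genes were among the risen genes. Of 18 genes of iron handling, 3 rose and none fell (median 0.14). Fth1, the ferritin heavy chain, was at 22830 to 31815 CPM in GrnKO and at 12013 to 19396 CPM in WT (log2 fold change 0.81 ± 0.11, edgeR adjusted p = 0.00239). Ftl1, the ferritin light chain, was at 5327 to 7425 CPM against 3044 to 4391 CPM (0.79 ± 0.12, edgeR adjusted p = 0.0127), and of the 12 tests that left out 1 animal each it missed the threshold in that without WT animal 3 (adjusted p = 0.0636). The third, Ftl1-ps1, is annotated as a pseudogene of Ftl1, and how the counting split reads between these near copies was not tested, so its value is uncertain. Of 30 antioxidant genes, 2 rose and none fell (median 0.18). Gpx3, a secreted glutathione peroxidase, was at 190.1, 231 and 302 CPM in GrnKO and at 0.721, 18.9 and 29.0 CPM in WT. WT animal 1 was the lowest, and without it the log2 fold change was 3.56 ± 0.21 in place of 3.81 ± 0.58 (edgeR adjusted p = 4.66e-07 and 0.0134). Prdx4, a peroxiredoxin of the endoplasmic reticulum, was at 206 to 310.1 CPM in GrnKO and at 103 to 188 CPM in WT (0.85 ± 0.16, edgeR adjusted p = 0.0446).

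In the list of TREM2, TYROBP and Fc receptor signalling, 3 of 34 genes rose and none fell (median 0.31). Tyrobp, or DAP12, the signalling adaptor of TREM2, was at 8009, 8867 and 9963 CPM in GrnKO and at 4336, 5050 and 6539 CPM in WT. The genotypes did not overlap, and the log2 fold change was 0.73 ± 0.12 (edgeR adjusted p = 0.0183). Hcst, or DAP10, an adaptor that pairs with DAP12, was at 131 to 166 CPM in GrnKO and at 69.2 to 98.3 CPM in WT (0.82 ± 0.14, edgeR adjusted p = 0.0218). Ms4a7, a tetraspan membrane protein, was at 308 to 541 CPM in GrnKO and at 94.5 to 214 CPM in WT (1.41 ± 0.21, edgeR adjusted p = 0.00809). Ms4a7 is also 1 of 16 listed markers of border-associated macrophages; of the other 15 none passed, the list's median was -0.48, and its summed level spanned 848 to 1193 CPM in GrnKO and 691 to 1329 CPM in WT.

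Of 32 genes for lipid carriers and lipid droplets, 2 rose and none fell (median -0.01), Fabp5 and Apoc4. Apoc4, an apolipoprotein of the Apoe gene cluster, was at 34.9 to 70.0 CPM in GrnKO and at 3.91 to 18.8 CPM in WT (2.07 ± 0.28, edgeR adjusted p = 0.00278). Its neighbour in that cluster, Apoe, had means of 23080 and 10802 CPM and genotypes that did not overlap, with an adjusted p of 0.0531 over 12 animals and 6.72e-05 without WT animal 1. Of 25 galectins, S100 proteins and annexins, 23 had a positive fold change (median 0.49) and 2 rose, Lgals3 and Anxa5. Anxa5, a phosphatidylserine-binding annexin, was at 278 to 387 CPM in GrnKO and at 84.5 to 204 CPM in WT (1.06 ± 0.18, edgeR adjusted p = 0.027).

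The other risen genes belonged to separate pathways. Cdo1, cysteine dioxygenase, the first enzyme of cysteine breakdown to taurine, was at 39.5, 45.2 and 50.5 CPM in GrnKO and at 0.0387, 1.74 and 5.80 CPM in WT (4.62 ± 0.84, edgeR adjusted p = 0.039). The GrnKO profiles kept within a narrow range, while WT profiles spread between 2 and 183 counts. Bnip3, a receptor for removal of mitochondria, was at 129 to 291 CPM against 93.7 to 124 CPM (0.80 ± 0.15, edgeR adjusted p = 0.0466) and was the only one of 29 glycolysis and hypoxia genes to pass; GrnKO animal 6 was its highest profile. Cox6a2, a subunit of cytochrome c oxidase, was at 279 to 524 CPM against 100.0 to 235 CPM (1.55 ± 0.20, edgeR adjusted p = 0.00239), and none of the other 62 nuclear genes of oxidative phosphorylation passed.

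Timp2, an inhibitor of metalloproteinases, had means of 1356 ± 110 CPM in GrnKO and 608 ± 196 CPM in WT (SD, n = 6 each; edgeR adjusted p = 0.0446). Wfdc17, a secreted protein with a WAP domain, had means of 869 ± 171 and 313 ± 93 CPM (edgeR adjusted p = 0.0012). Gng12, a G protein gamma subunit, had means of 131 ± 16 and 74.2 ± 8.8 CPM (edgeR adjusted p = 0.0218), and Rftn1, a protein of lipid rafts, 46.1 ± 12.2 and 20.5 ± 4.5 CPM (adjusted p = 0.0446). The remaining 3 were named after their values were seen. Syngr1, a synaptogyrin of small vesicles, rose by 1.21 ± 0.16 on the log2 scale (edgeR adjusted p = 0.00239), and the transcript ENSMUSG00000120604, without a gene symbol in the table, had means of 19.7 and 4.71 CPM (adjusted p = 0.0446). Serpinb1c had 34 to 180 counts in each GrnKO profile and 0 in every WT profile, which makes it at least 208-fold higher against a floor of 3 counts over the WT group; it has close paralogs among which reads may be split.

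Only 6 genes fell, Grn among them. Cxcl13, a chemokine that attracts B cells, was at 4.13, 5.54 and 12.5 CPM in GrnKO and at 80.5, 122 and 400 CPM in WT. The highest WT profile, animal 11, lay far above the other WT animals, and all 6 GrnKO profiles lay below the lowest WT profile. The log2 fold change was -4.51 ± 0.47 (edgeR adjusted p = 4.79e-04). By bin it was -4.96 ± 1.24 in low cells (edgeR adjusted p = 0.233) and -4.48 ± 0.44 in high cells (adjusted p = 1.68e-04). The low libraries overlapped, with WT animal 7 at 5.43 CPM and GrnKO animals 2 and 6 at 15.5 and 6.80 CPM. Cxcl13 and Igf1 are among 32 tested chemokines, cytokines and their receptors, whose median log2 fold change was -0.05.

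Egr1, a transcription factor of the immediate-early response, was at 9.97, 17.1 and 31.1 CPM in GrnKO and at 34.7, 75.9 and 81.7 CPM in WT (-1.77 ± 0.31, edgeR adjusted p = 0.0295). The lowest WT profile was animal 9, just above the highest GrnKO profiles. Of 34 immediate-early and stress genes it was the only one to pass, with a list median of -0.27; without WT animal 1, 7 passed, all lower, and they included Fos, Dusp1, Btg2, Zfp36 and Ier2. Dissociation is known to induce this group, and the inhibitors used to limit that were present for both genotypes. Whether dissociation differed between genotypes was not tested. Ntsr2, a neurotensin receptor, was at 2.73 to 10.2 CPM in GrnKO and at 10.6 to 77.1 CPM in WT (-2.37 ± 0.43, edgeR adjusted p = 0.0324), with WT animal 1 the highest. Ntsr2 is 1 of 14 listed astrocyte markers, of which 13 had a negative fold change (median -1.601) and no other passed; their summed level was 283 to 403 CPM in GrnKO and 381 to 2500 CPM in WT. Without WT animal 1 the call stood at a log2 fold change of -2.04 (adjusted p = 0.0121) and the list median at -0.94.

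**Figure D3:**
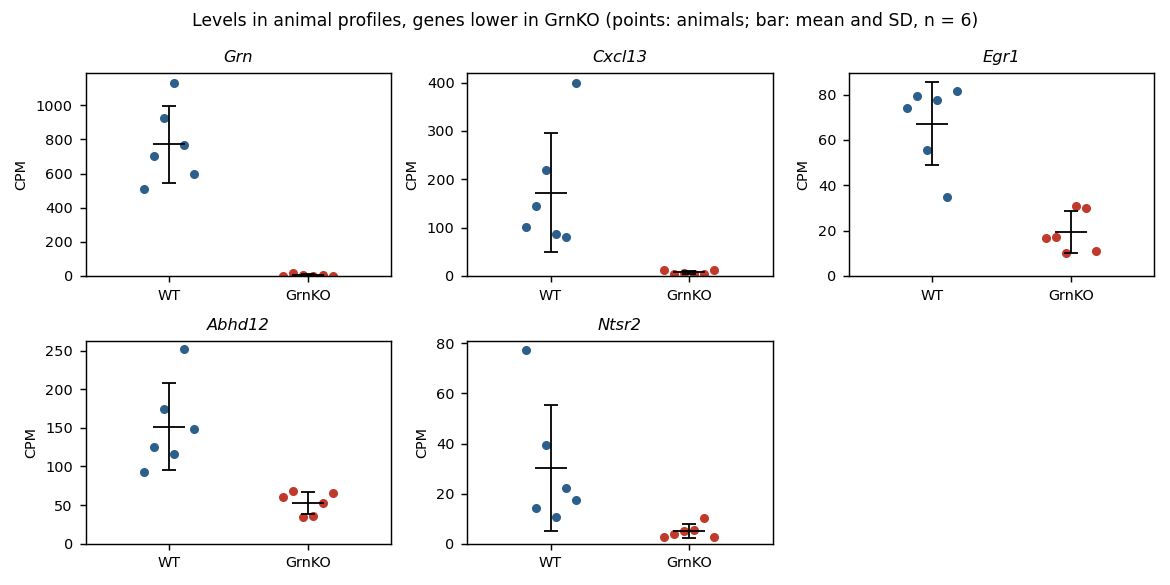
Levels of 5 genes that fell in GrnKO, in CPM per animal profile (linear axes from 0), with the mean and SD of 6 animals per genotype. No GrnKO point reaches the lowest WT point in any panel; Cxcl13 spans 80.5 to 400 CPM in WT and 4.13 to 12.5 CPM in GrnKO.

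Summing the bins called genes that no single bin called. Tested alone over the same genes, the low bin gave 18 genes (0.132%) and the high bin 27 (0.197%; edgeR quasi-likelihood test). Without WT animal 1 they gave 50 and 92. These tests use libraries that are also in the animal profiles, so they are not independent of them. Of the 37 genes called over animals, 12 passed in both bins, 1 in the low bin alone, 7 in the high bin alone and 17 in neither. The 17 included Apoc4, Tyrobp, Smpdl3a, Hcst, Gng12, Serpinb1c, Cdo1, Atp6v0d2, Rftn1, Prdx4, ENSMUSG00000120604, Timp2 and Gpr137b, which rose, and Abhd12, Egr1 and Ntsr2, which fell. For Tyrobp the log2 fold change was 0.94 ± 0.17 in the low bin (edgeR adjusted p = 0.0509) and 0.50 ± 0.15 in the high bin (adjusted p = 0.284). For Timp2 it was 1.31 ± 0.24 (edgeR adjusted p = 0.0509) and 1.03 ± 0.20 (adjusted p = 0.0577), and for Egr1 -1.70 ± 0.34 (0.075) and -1.84 ± 0.43 (0.145). Apart from Abhd12, each of the 17 had the same sign in both bins. Most of these calls depended on single animals. Of the 17 that have a symbol, only Apoc4 kept the call in all 12 tests that left out 1 animal each. Tyrobp kept it in 7 of them, Timp2 and Gpr137b in 2 and Rftn1 in 1.

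Abhd12, a lipase of lysophosphatidylserine, passed over animals with opposite signs in the bins. The animal profiles were at 35.0 to 68.3 CPM in GrnKO and at 93.0 to 251 CPM in WT (-1.51 ± 0.26, edgeR adjusted p = 0.023). By bin, the log2 fold change was 0.58 ± 1.09 in the low bin and -2.75 ± 0.58 in the high bin (edgeR adjusted p = 0.975 and 0.0831; unadjusted p of their difference 0.0667). The call over animals was lost without any 1 of 7 animals (2, 3, 5, 6, 8, 10 and 11; adjusted p up to 0.0819) and in limma-voom on the 24 libraries with the animal as block (adjusted p = 0.248), and also in edgeR on the 24 libraries with no block (adjusted p = 0.628). WT high libraries lay between 198 and 507 CPM, and WT low libraries between 3.49 and 78.0 CPM. The GrnKO animals labelled female, 4, 8 and 12, likewise had more in their high libraries, at 116, 62.9 and 126 CPM, than in their low libraries, at 21.0, 10.4 and 7.86 CPM. Those labelled male, 2, 6 and 10, had the reverse, with 18.5, 13.2 and 17.3 CPM in the high and 94.0, 53.2 and 85.2 CPM in the low libraries. This ordering was noticed after the values were seen and was not tested.

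**Figure D4:**
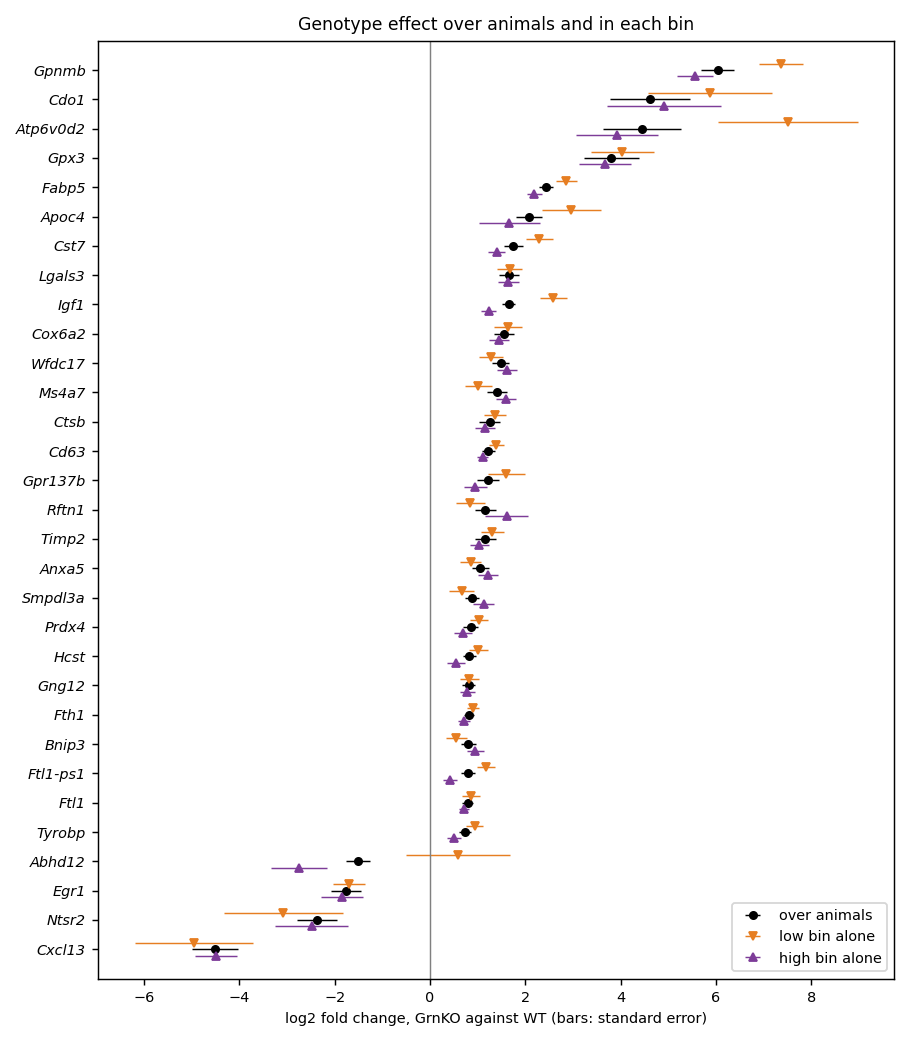
Log2 fold change (GrnKO against WT) with its standard error over animals, in the low bin alone and in the high bin alone, for the genes called over animals that the text names, without Grn and a few others. The bins lie on the same side of 0 for every gene drawn but Abhd12, with 0.58 (low) and -2.75 (high). The size of the change differs between bins for several genes, such as Igf1, with 2.59 (low) and 1.23 (high).

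The difference of the genotype effect between bins was tested within animals. No gene of 13683 passed (0%, edgeR quasi-likelihood test with the animal as block; 734 genes had an unadjusted p under 0.05, the lowest adjusted p was 0.92, and DESeq2 called 162). Of the 37 genes called over animals, 11 had an unadjusted p under 0.05 for this difference. Of the 10 risen ones among them, 9 had the larger log2 fold change in the low bin and 1, Ms4a7, in the high bin. Gpnmb had a log2 fold change of 7.36 ± 0.47 in low and 5.56 ± 0.38 in high cells, with WT means of 1.63 and 10.9 CPM and GrnKO means of 274 and 471 CPM. Igf1 had 2.59 ± 0.29 and 1.23 ± 0.16, with WT means of 17.3 and 75.1 CPM and GrnKO means of 104 and 177 CPM. In both genes the level was higher in the high bin in each genotype.

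Some genes were called in a bin alone and not over animals, 5 of them in low and 8 in high cells. They are named here after their values were seen. Apoe had a log2 fold change of 1.56 in the low bin and 0.83 in the high bin (edgeR adjusted p = 0.0198 and 0.146). Ctsd, the aspartic protease cathepsin D, had 1.46 and 0.84 (edgeR adjusted p = 0.0473 and 0.24; 0.076 over animals), and Pkm, the pyruvate kinase of glycolysis, 1.39 and 0.61 (0.0161 and 0.604; 0.0554 over animals). Spp1, osteopontin, had 1.50 and 0.31, and its profiles overlapped, with an adjusted p of 0.387 over animals. In the high bin Lyz2, a lysozyme, had 1.00 against 0.96 in the low bin (edgeR adjusted p = 0.036 and 0.429), and Anxa4, an annexin, 1.18 against 1.05 (0.00722 and 0.818). Jun, an immediate-early factor, had -1.005 in the high and -0.27 in the low bin (0.0179 and 0.909).

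Many pathways had no called member over 12 animals, where 0.270% of all tested genes were called. At that share most lists of this size would hold none, so the lack of calls is not a result about these pathways. Of 32 homeostatic microglial genes none passed, and 25 had a fold change at or below 0 (median -0.21). The 38 genes of the type 1 interferon response had a median of -0.30 and 30 of TGF-beta signalling -0.32, and none passed in either; Tgfbr1, a TGF-beta receptor on which microglial identity depends, had means of 580.4 and 756 CPM (edgeR adjusted p = 0.231). Among 18 complement genes none passed (median 0.30), and C1qa had means of 945 and 654 CPM (adjusted p = 0.322). Of 77 cytosolic ribosomal protein genes none passed and 73 had a positive fold change (median 0.24), or 63 (median 0.12) by library size only. The 37 cell cycle genes had a median of 0.68 with none past the threshold; Birc5, a mitotic survivin, had means of 39.0 ± 19.9 and 18.2 ± 8.5 CPM. All 13 mitochondrially encoded genes had a negative fold change (median -0.30), and without WT animal 1, 11 of 13 had a positive one (median 0.20).

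The share of mitochondrial counts did not separate the genotypes, at 2.15 ± 0.28% in GrnKO and 3.14 ± 2.80% in WT (SD, n = 6 each; exact permutation test, 2-sided, p = 0.729), and the WT value rests on animal 1.

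Markers of other cells in the CD11b+/CD45+ gate were followed beside these results. The 25 tested T and NK cell markers had a median log2 fold change of 1.5995, and none passed. Summed over all 28 listed markers, tested or not, the level was 356 to 950 CPM in GrnKO and 145 to 496 CPM in WT, with overlap. Nkg7, a protein of cytotoxic granules, had means of 147 ± 67 and 49.1 ± 21.5 CPM (edgeR adjusted p = 0.0554). By bin, its GrnKO and WT means were 238 and 63.6 CPM in low cells and 50.6 and 33.1 CPM in high cells. Erythrocyte markers were summed over the 9 found among the deposited genes, of which 6 were tested. The sums ran from 58.9 to 24289 CPM in GrnKO, with 4 of 6 animals at or above 3980 CPM, and from 27.6 to 2966 CPM in WT. Choroid plexus markers (13 tested, median -1.49) and neutrophil markers (14 tested, median 0.55) had overlapping sums, each over 17 listed markers. No tested gene of either passed. The list medians in low and in high cells were 1.84 and 0.64 for T and NK cells and 9.46 and 0.78 for erythrocytes. They were -1.24 and -2.36 for choroid plexus and 0.76 and -0.58 for neutrophils. Without the 2 libraries highest in erythrocyte markers, 72 genes passed, among them 34 of the 37; without the 4 highest in choroid plexus markers, 110 passed, among them 35. The part of other cells in single results was otherwise not tested.

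**Figure D5:**
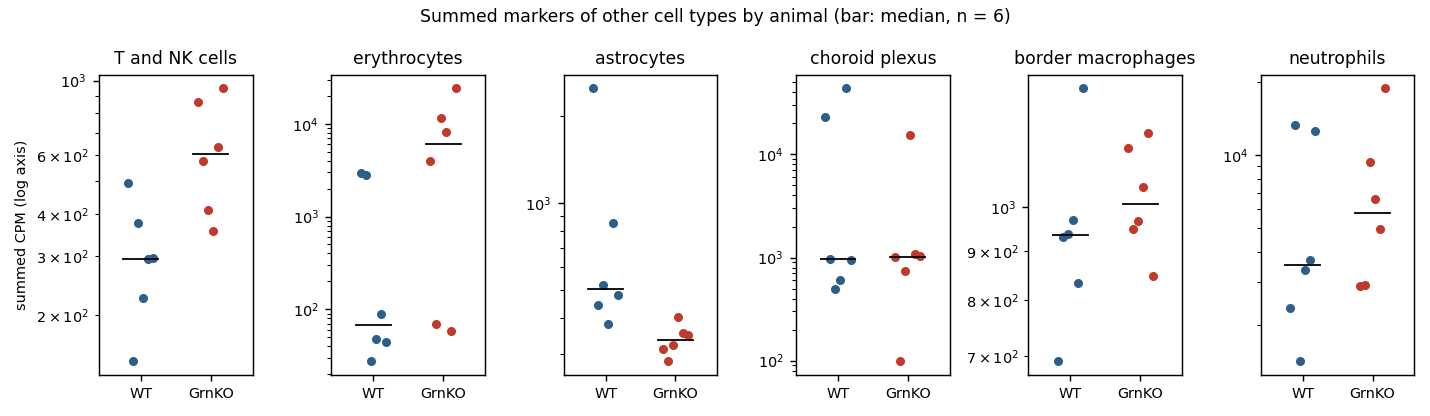
Summed CPM of markers of 6 other cell types per animal profile (log axes, which differ between panels), with the median of 6 animals per genotype. T and NK cell markers run higher in GrnKO with overlap, and astrocyte markers are highest in WT animal 1, at 2500 CPM.

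A further test asked whether the genotype effect differed between animals labelled male and female. No gene passed (0%, edgeR quasi-likelihood test; 855 genes had an unadjusted p under 0.05, the lowest adjusted p was 0.753, and DESeq2 called 50). Tested within a class of 3 against 3, the animals labelled male gave 0 genes (740 at an unadjusted p under 0.05) and those labelled female 51, of which 19 were among the 37. WT animal 1 is in the class labelled male. The calls nearest to the threshold were also lost when an animal was left out, which leaves fewer profiles to test. Of 36 called genes with a symbol, 16 passed without each animal in turn. Those 16 were led by Gpnmb, Fabp5, Igf1, Cxcl13, Cd63 and Cst7. The other 20, Ctsb, Anxa5, Tyrobp and Egr1 among them, each lost the call without at least 1 animal; Rftn1 and Bnip3 kept it only when the animal left out was WT animal 1. The largest adjusted p of a lost call was 0.143, for Gpr137b.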

How the data were processed

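The authors deposited estimated counts per gene for 24 libraries (expected counts) to 2 significant digits, with 8.28% of values from 0 to 10 not whole at a tolerance of 1e-09. Per the submitters' processing notes, STAR 2.7.9a and Salmon 1.10.1 were used with GRCm39, and edgeR 4.6.2 in R 4.5.1; no source used here states how strand was handled. The test planned was for counts, and profiles of these deposited estimates were rounded to integers. Per animal, the deeper library was scaled down to the total of the shallower one, and the low and high libraries were summed. filterByExpr kept 13683 of 56980 genes. The main test was edgeR 4.0.16 (R 4.3.3; TMM, robust glmQLFit, glmQLFTest, 2-sided) with the sex label as covariate, and a gene was called at an adjusted p (Benjamini-Hochberg, all tested genes) under 0.05. Levels are CPM with TMM scaling; SE is the log2 fold change divided by the square root of F. DESeq2 1.42.0 and limma 3.58.1 were alternatives. The scripts were tested on simulated data.

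The labels' animal number pairs each low library with a high one. Across 7209 genes, the correlation of their deviations from the group mean had a median r of 0.108 (range -0.0388 to 0.343), and 5 of 12 correlated best with their own animal. No 2 libraries of a group were copies (0 identical of 60 pairs; chi-square per gene at least 105). The sources describe separate animals as replicates. Counts carried no molecular identifiers, so the floor of 3 counts covers counting error only.

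The comparison and the gene lists were chosen with earlier results of these data known. The text names Grn, the called genes of largest change in each direction with at least 10 CPM in the higher genotype and a regular symbol, the 15 of smallest p that no bin called alone, up to 4 called members a list in the main direction and 2 in the other, and 2 of smallest p in lists with none; not all are named, and those outside the rule are marked as named after their values were seen. Genes that share a symbol (12) are not named, and some results are not reported here.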

Additional observations from a re-analysis of the deposited data

Results flagged for a closer look

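In groups of 6 animals, a profile was marked when its gap to the nearest other, divided by the group's range, exceeded Dixon's critical value of 0.625. Of 148 groups looked at, 11 had such a profile. The critical value marks about 1 in 20 groups of independent, normally distributed values. The levels here are not on a log scale and come from the same 12 animals throughout, so that rate need not hold. WT animal 1 was marked in 4 of the 11 groups. Its mitochondrial share was 8.81% (nearest other WT animal 2.78%), its summed astrocyte markers 2500 CPM (nearest 850 CPM), the pericyte gene Rgs5 172 CPM (nearest 9.47 CPM) and Rarres2, chemerin, listed here as a choroid plexus and ependymal marker, 168 CPM (nearest 23.1 CPM).

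The other marked profiles were single cases. Gpnmb was at 15.99 CPM in WT animal 5 (nearest 4.74 CPM), and Grn at 19.3 CPM in GrnKO animal 4 (nearest 5.14 CPM), both far from the other genotype. GrnKO animal 4 also had the lowest mitochondrial share of its group, 1.602% (nearest 2.11%). GrnKO animal 6 had the highest Lgals3, 1491 CPM (nearest 1134 CPM), and the highest Bnip3, 291 CPM (nearest 182 CPM). Nkg7 was at 89.3 CPM in WT animal 9 (nearest 51.3 CPM). Choroid plexus markers summed to 15288 CPM in GrnKO animal 8 (nearest 1075 CPM).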

How the results depend on the processing

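The number of genes called over animals, 37, depended on the test and on single animals, while no named called gene changed direction under any alternative run. Other tests and filters gave 254 genes in DESeq2 (137 higher, 117 lower), 81 in limma-voom on the profiles, 165 in edgeR on the 24 libraries with no block, 353 with no low-count filter (175 higher, 178 lower) and 65 at a mean of at least 10 CPM. These held all 37 genes in DESeq2, limma-voom and the unfiltered test, 35 of the 37 in the test with no block and 36 at 10 CPM. By library size only there were 30 genes, 19 higher and 11 lower (63.3% higher against 83.8%), with 25 of the 37; the median of all tested genes moved from -0.04 to -0.17. Left-out libraries gave 110 (without 4 high in choroid plexus markers, which removes WT animal 1), and, chosen after seeing the data, 72 (without 2 high in erythrocyte markers) and 153 (without 2 high in astrocyte markers, both of WT animal 1). Leaving out the library highest in mitochondrial share, the low library of WT animal 1, gave 34 genes, among them 26 of the 37. The animals labelled male alone gave 0.

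Leaving out each animal in turn gave 17 (without animal 2) to 153 (without animal 1) genes over animals, 8 to 50 in the low bin, 16 to 92 in the high bin, 0 for the bin difference and 0 to 3 for the sex-label difference; animal 1 gave the highest count in the first 3. The mitochondrial share reversed without animal 1 (0.142 percentage points higher in GrnKO, exact permutation p = 0.545; lowest value -1.28, without animal 7, against -0.992). DESeq2 gave 211 genes in the low bin, 286 in the high bin, 162 for the bin difference with the animal as replicate block and 50 for the sex-label difference; the high bin gave 45 at 10 CPM. With the animal as a replicate block, limma-voom on 24 libraries called 156 genes, 36 of the 37; Abhd12 (adjusted p = 0.248) was the only one of the 37 not called there, in a fit that differs from the main one in test and input as well as in pairing; edgeR on the 24 libraries with no block did not call it either (adjusted p = 0.628). The bin difference with no replicate block gave 0. With 6 animals per genotype, genes that miss the threshold are not shown to be alike. The causes of these differences were not tested.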

Other observations

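Leaving out WT animal 1, the profile with the high mitochondrial and astrocyte transcripts, gave 116 further genes, chosen here after the data were seen. Among 29 glycolysis and hypoxia genes, 7 were then higher in GrnKO: Bnip3, Hif1a, Pkm, Aldoa, Gapdh, Pgam1 and Tpi1. Hif1a, the oxygen-regulated transcription factor, had means of 62.0 CPM in GrnKO and 29.2 CPM in WT (log2 fold change 1.08 ± 0.19, edgeR adjusted p = 0.0115; 0.374 over 12 animals). The metallothioneins Mt1 and Mt2, which bind zinc and copper, were higher with log2 fold changes of 0.98 ± 0.15 and 1.25 ± 0.19 (edgeR adjusted p = 0.00324 for both; 0.824 and 0.944 over 12 animals). Both lysosomal lipid genes Npc2, a cholesterol carrier (0.69 ± 0.08, adjusted p = 4.77e-04), and Pld3, a phospholipase D family member of lysosomes (1.44 ± 0.16, adjusted p = 3.61e-04), were higher, as were Trem2 (0.45 ± 0.10, 0.047) and Fcer1g, the signalling gamma chain of Fc receptors (0.50 ± 0.09, 0.00971). Lower were 2 genes of membrane sensing: Cd14, the lipopolysaccharide co-receptor (-0.59 ± 0.10, edgeR adjusted p = 0.00705), and Lpar6, a lysophosphatidic acid receptor (-0.56 ± 0.13, 0.0489). Because these 116 calls rest on leaving out 1 animal picked for its values, they are a description of the other 11 profiles.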
